A study of Mus musculus with 6 samples.

Results

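The 10 genes described here mark the ureteric trunk, the stalk of the branching ureteric epithelium behind its tips: Gata3, Calb1, Emx2, Krt8, Krt18, Krt19, Elf3, Wfdc2, Tfcp2l1 and Epcam. They were listed by name, and each was read from every probe set that the array's annotation assigns to that gene alone. All 10 were measured among 18193 genes, by 18 probe sets, and where a gene has several probe sets the brightest on average stands for it. Whole kidneys were taken from mouse embryos at E13.5, while the kidney is branching, and their RNA was read on 6 Affymetrix MOE430.2 arrays. The 3 control arrays (C1, C2 and C3) carried kidneys of genotype Fz4+/+Fz8-/-, called Fz8-null, and the other 3 (M1, M2 and M3) carried kidneys of genotype Fz4-/-Fz8-/-, called double-null. All mice were hybrids of the strains C57BL/6, 129X1/SvJ and 129S1/Sv, and all lacked Fz8, so the comparison asks what loss of Fz4 changes where Fz8 is already missing, and no wild-type kidney is included. The labels call the arrays of a genotype biological replicates and do not say whether an array holds 1 embryo or a pool.

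The ureteric bud grows out of the nephric duct, and its tips keep dividing and branching while the cells left behind become the trunk, which matures into the collecting ducts and, further down, joins the ureter. Gata3 and Emx2 encode transcription factors of the nephric duct and the bud. Tfcp2l1 encodes a transcription factor of the maturing collecting duct, and Elf3 encodes an ETS family factor of simple epithelia. Krt8, Krt18 and Krt19 encode keratins, the intermediate filaments of simple epithelia. Epcam encodes an adhesion molecule of epithelial cells, Calb1 a cytosolic calcium-binding protein of the ureteric bud and distal tubule, and Wfdc2 a secreted protein with whey acidic protein domains. Keratins, Epcam, Elf3 and Wfdc2 are made by many epithelia, so only some of the list is particular to the ureteric tree.

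The 4 transcription factor genes all lay lower in double-null kidneys, with every double-null array below every Fz8-null array. Epcam, which encodes no transcription factor, lay lower by as much (-0.32) with groups that overlapped, and the keratin genes, Calb1 and Wfdc2 lay on both sides of the Fz8-null values. None of the 10 passed limma's test at an adjusted p of 0.05 over all genes, where 0.0275% of genes passed in either direction. At an unadjusted p under 0.05 limma gave 2 of the 10, both lower (Gata3 and Elf3), beside 15.3% of all genes in either direction. Groups did not overlap for 4 of the 10 on the lower side and 0 on the higher side, beside 12.2% and 6.68% of all genes. Under the 3 other scalings tried, 1 or 2 of the 10 lay lower without overlap, all among these 4, beside 9.11% to 11.4% of all genes. The grouping by role was made after the values were seen and was not tested. The median difference of the 10 was -0.13 on the log2 scale, against -0.061 over all genes and -0.15 over the genes whose mean log2 value was at least 6. Whether a lower value came with fewer trunk cells, less RNA per trunk cell or other cells that make the gene cannot be told apart in whole kidneys.

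The representative probe sets of Krt8 and Krt18 rose from M2 to M1 to M3, as did those of Krt19, Elf3 and Epcam. Sequences are shown for the keratin partners Krt8 and Krt18 and for Elf3, the member with the largest negative difference. Each is the 250 bases before the gene's start in the RefSeq promoter table of build GRCm38.p6, written 5′ to 3′ on the gene's strand. Capitals mark AGATAA, the core bound by GATA factors such as Gata3, and AGGAAG, a core bound by ETS factors such as Elf3, on either strand. The Krt8 window is chr15:102004343-102004592 on the minus strand, the Krt18 window chr15:102027966-102028215 on the plus strand and the Elf3 window chr1:135258473-135258722 on the minus strand.
Krt8: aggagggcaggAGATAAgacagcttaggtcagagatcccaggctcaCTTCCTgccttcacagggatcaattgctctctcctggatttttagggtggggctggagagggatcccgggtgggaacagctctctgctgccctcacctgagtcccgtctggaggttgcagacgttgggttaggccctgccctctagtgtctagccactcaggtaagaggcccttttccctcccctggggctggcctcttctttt
Krt18: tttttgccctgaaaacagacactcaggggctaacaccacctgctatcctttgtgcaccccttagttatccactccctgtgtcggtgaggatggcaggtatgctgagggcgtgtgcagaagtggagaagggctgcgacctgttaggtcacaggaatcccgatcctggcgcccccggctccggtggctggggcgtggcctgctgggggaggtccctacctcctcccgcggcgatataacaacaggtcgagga
Elf3: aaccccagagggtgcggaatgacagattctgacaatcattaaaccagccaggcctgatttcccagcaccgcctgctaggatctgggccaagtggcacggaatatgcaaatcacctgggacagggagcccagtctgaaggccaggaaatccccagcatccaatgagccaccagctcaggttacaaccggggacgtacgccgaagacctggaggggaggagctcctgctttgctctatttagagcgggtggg
In the Krt8 window AGATAA began 239 bases before the start site, on the gene's strand, and AGGAAG lay on the other strand as CTTCCT, its first letter at 204 bases before the start. The Krt18 and Elf3 windows held neither. The table matched 8 of the 10 genes, with no entry for Calb1 and Krt19. Of the 8 windows, 1 held AGATAA, beside 9.99% of all 32851 windows in the table, and 2 held AGGAAG (Krt8 and Wfdc2), beside 29.5%. TAATTA, a core of homeodomain factors such as Emx2, was in 0 of the 8 and in 4.84% of all windows. The 3 motifs were searched on both strands, and their matches did not overlap in the member windows.

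The genotype was read first. Fzd4, which encodes Fz4, had log2 intensities of 10.74, 10.86 and 10.93 in C1, C2 and C3 and 5.29, 4.96 and 3.89 in M1, M2 and M3, a difference of -6.13 (SE 0.35, limma adjusted p = 0.00318). Fzd8 read between 3.57 and 4.42 on the 6 arrays, below the lower quartile of its array on 5 of them. On these arrays the lower quartile of all probe sets lay between 4.02 and 4.31 and the median between 6.02 and 6.14. M1 and M2 had the narrowest spread, with interquartile ranges of 3.97 and 3.88, against 4.27 to 4.39 on the other 4 arrays. In M2 the genes with a mean of 6 to 8 lay at a median of -0.45 from the Fz8-null mean and those with a mean of 8 to 10 at -0.29, against 0.018 and -0.017 in M3. In M1 the same 2 medians were -0.32 and -0.19. Genes with a mean over 10 lay at -0.044, -0.083 and -0.051 in M1, M2 and M3. Of the 10 members only Elf3 read below the median of its array, and whole-kidney arrays cannot show which cells a member's signal came from. Most members are bright, so their values in the double-null arrays are to be read beside these medians.

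Gata3, which is needed for the nephric duct and for keeping the bud's identity, had log2 intensities of 8.76, 8.60 and 8.51 in the Fz8-null arrays. In M1, M2 and M3 it read 8.09, 8.29 and 8.35. The lowest Fz8-null array and the highest double-null array were 0.16 apart. The means were 8.62 ± 0.13 and 8.24 ± 0.13 (SD, n = 3 in each), and the difference was -0.38 (SE 0.14, 95% interval -0.71 to -0.05, limma adjusted p = 0.315). Its deviations from the Fz8-null mean were -0.53, -0.33 and -0.27, and without M2 the difference was -0.40. It has 1 probe set on the array.

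Elf3 had the largest negative difference of the 10 and was the dimmest. It read 5.34, 5.37 and 5.58 in the Fz8-null arrays and 4.88, 4.26 and 5.08 in M1, M2 and M3, below the median probe set on every array, and in M2 below the lower quartile of 4.31. The groups were 0.26 apart. The difference was -0.69 (SE 0.23, 95% interval -1.23 to -0.16, limma adjusted p = 0.314), from 5.43 ± 0.13 to 4.74 ± 0.43 (SD, n = 3 in each), and 3.22% of all genes had a lower difference. That share was 16.2% for Gata3, 20.9% for Epcam, 21.4% for Emx2 and 23.1% for Tfcp2l1. Without M3 Elf3 passed (-0.86, limma adjusted p = 0.0354), in a fit that called 3292 genes. Without M2 the difference was -0.46 (adjusted p = 0.650).

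Emx2, a homeobox gene without which the bud forms but does not branch, read 9.97, 10.25 and 10.27 in the Fz8-null arrays. In M1, M2 and M3 it read 9.97, 9.85 and 9.72. C1 and M1 differed by only 0.0019, so the groups met at that pair. The difference was -0.32 (SE 0.14, 95% interval -0.66 to 0.03, limma adjusted p = 0.337).

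Tfcp2l1, whose product sets the pattern of collecting duct cell types, read 9.52, 9.61 and 9.56 in the Fz8-null arrays. It read 9.50, 8.81 and 9.49 in M1, M2 and M3. Its low mean came from M2, while M1 and M3 lay within 0.08 of the Fz8-null mean and C1 was 0.022 above M1. The difference was -0.30 (SE 0.21, limma adjusted p = 0.473), and it was -0.07 without M2. A pair of dim Tfcp2l1 probe sets, which read between 3.47 and 4.09, stood at 0.31 (1460715_x_at), higher with no overlap, and at -0.046 (1460714_at). With the mean of its probe sets the Tfcp2l1 difference was -0.011.

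**Figure D1:**
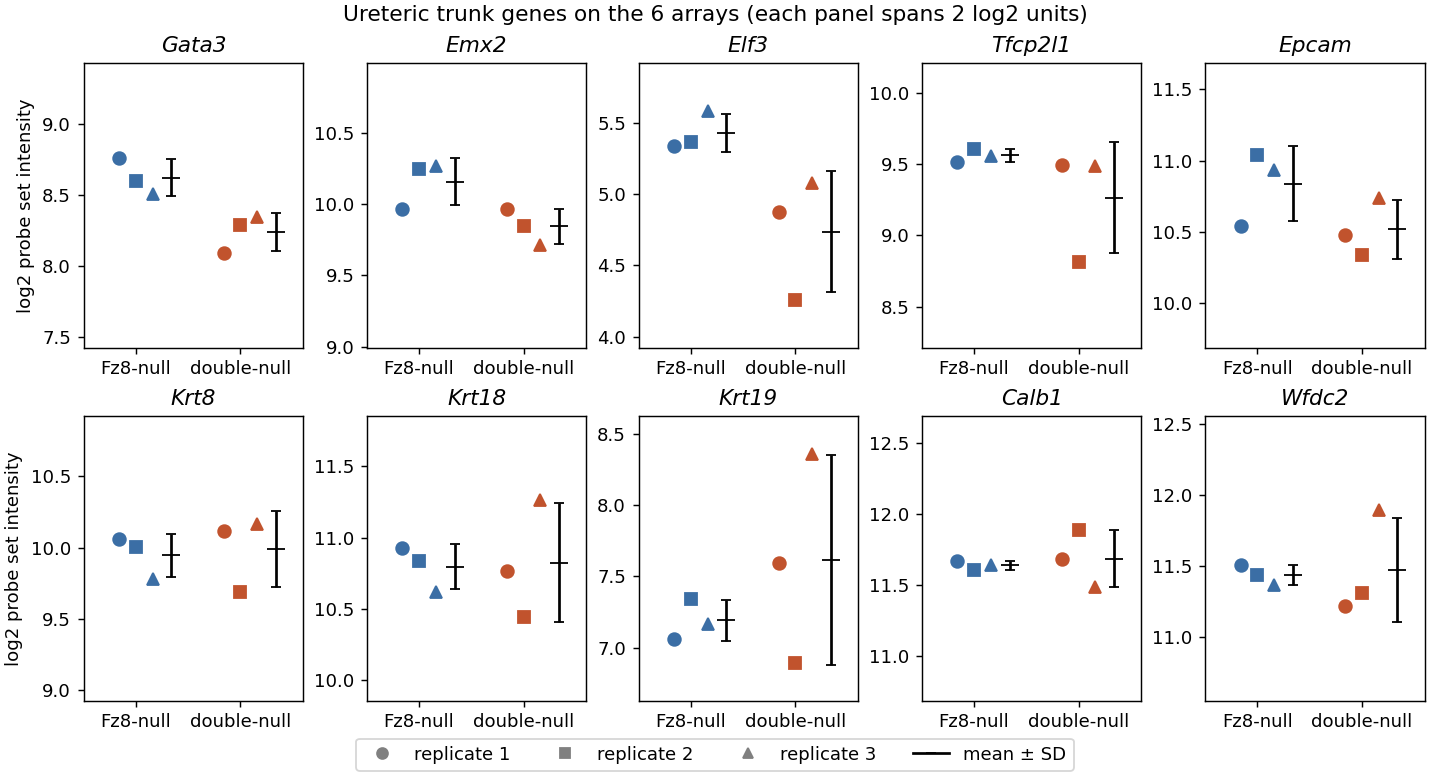
Log2 probe set intensity (vertical axis) of the 10 ureteric trunk genes on the 3 Fz8-null (blue) and 3 double-null (orange) arrays; each point is 1 array, its shape gives the replicate number, and the black bar is the mean ± SD of 3 arrays. Every panel spans the same range, so Gata3 and Elf3 show a gap between the groups, Emx2 and Tfcp2l1 almost touch, and Krt18, Krt19 and Wfdc2 spread widely among double-null arrays.

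The keratin genes showed no common direction between genotypes and a wide spread among the double-null arrays. Krt8 encodes a type II keratin and Krt18 and Krt19 encode type I keratins, and a filament needs a chain of each type. Krt8 read 10.06, 10.002 and 9.78 in the Fz8-null arrays and 10.12, 9.68 and 10.16 in M1, M2 and M3. Krt18 read 10.93, 10.84 and 10.62 in the Fz8-null arrays. In M1, M2 and M3 it read 10.76, 10.44 and 11.27. Krt19, the smallest keratin, read 7.06, 7.34 and 7.17 in the Fz8-null arrays and 7.59, 6.89 and 8.36 in M1, M2 and M3. In these probe sets of the 3 genes M2 was the lowest of the 6 arrays and M3 the highest, so the groups overlapped on both sides. Among the 3 double-null arrays alone, M2 was the lowest for 41.6% of all genes and M3 the highest for 51.2%. For genes with a mean of at least 8 these shares were 47.1% and 55.4%.

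The differences were 0.04 for Krt8 (95% interval -0.37 to 0.46), 0.03 for Krt18 (-0.50 to 0.56) and 0.43 for Krt19 (-0.40 to 1.25), with limma adjusted p of 0.914, 0.954 and 0.534. From M2 to M3 the values differed by 0.48, 0.83 and 1.47, against ranges of 0.29, 0.31 and 0.28 among the Fz8-null arrays. Krt19 thus spread more widely over the double-null arrays (1.47) than over the Fz8-null arrays (0.28). Its difference was 0.05 without M3 and 0.79 without M2. Krt8 was the only keratin of the 3 with several probe sets. The others stood at -0.0052 (1420647_a_at) and -0.099 (1423691_x_at), both again lowest in M2. They disagreed on the highest array: the first was highest in M1 at 10.33 and read 9.97 in M3, within the Fz8-null values of 9.94 to 9.99, and the second was highest in M3 at 9.42. The suffix x marks probe sets with probes that can bind other transcripts, and the representative of Krt8 is also of that kind. Krt7, another simple-epithelial type II keratin named after its values were seen, read 8.35, 7.78 and 8.64 in M1, M2 and M3 and 7.98 to 8.56 in the Fz8-null arrays.

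Epcam, which holds simple epithelial cells together, read 10.54, 11.04 and 10.94 in the Fz8-null arrays and 10.48, 10.33 and 10.74 in M1, M2 and M3. Only M3 overlapped the Fz8-null arrays, and only C1 lay below it. The difference was -0.32 (SE 0.18, 95% interval -0.76 to 0.12, limma adjusted p = 0.401). A less bright Epcam probe set (1447899_x_at) stood at -0.40 with no overlap, at 7.06, 6.98 and 7.20 against 6.92, 6.41 and 6.70.

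Calb1 was the steadiest of the 10 in Fz8-null kidneys. It read 11.67, 11.60 and 11.64 there and 11.68, 11.89 and 11.49 in M1, M2 and M3. It was the only member that was highest in M2 and lowest in M3, the reverse of the keratins. The difference was 0.05 (95% interval -0.29 to 0.39, limma adjusted p = 0.877), and 3 further probe sets stood at 0.0045, -0.035 and 0.39. The last of these, 1448738_at, read 6.71, 6.95 and 5.60 in M1, M2 and M3, again with M2 high and M3 low.

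Wfdc2 read 11.51, 11.43 and 11.37 in the Fz8-null arrays. It read 11.22, 11.31 and 11.89 in M1, M2 and M3, with M1 and M2 below and M3 above all Fz8-null arrays. The difference was 0.04 (95% interval -0.43 to 0.50, limma adjusted p = 0.936). M3 thus held the highest values of Krt18, Krt19 and Wfdc2 and of the Krt8 representative.

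**Figure D2:**
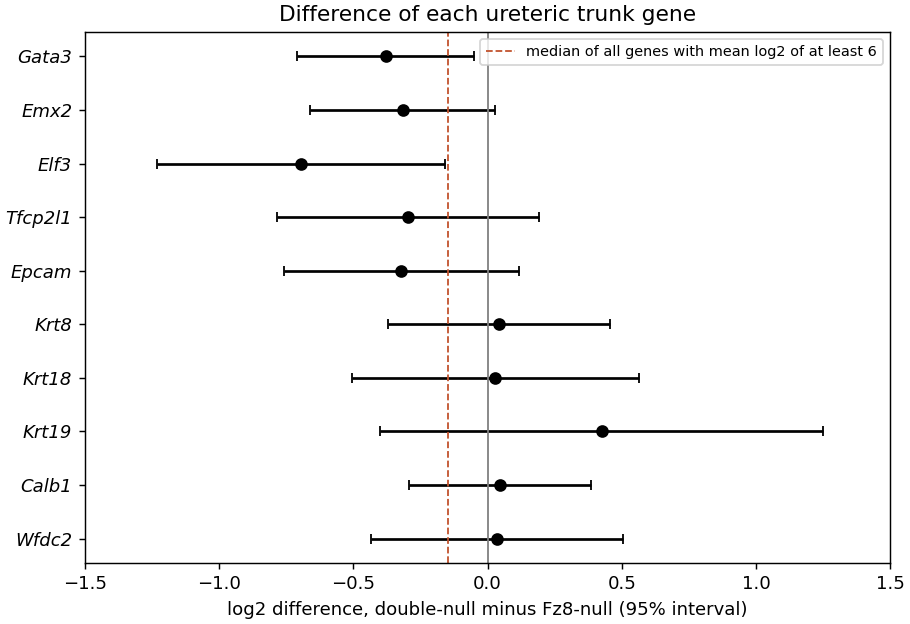
Log2 difference of each ureteric trunk gene (double-null minus Fz8-null, horizontal axis) with its 95% interval from the limma fit of 3 against 3 arrays; the dashed line is the median of all genes with a mean log2 of at least 6. The interval lies below 0 for Gata3 and Elf3 and includes 0 for the other 8 genes.

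Counted by array, 7 of the 10 genes lay below their Fz8-null mean in M1, 9 did so in M2 and 6 did so in M3. Of all 18193 genes 10661, 10955 and 8856 did so. Of the 11174 genes with a mean log2 of at least 6 the counts were 7747, 8186 and 5930. The members' median deviations in the 3 arrays were -0.13, -0.32 and -0.09 in that order. For genes with a mean of at least 6 they were -0.17, -0.25 and -0.018. The 4 transcription factor genes were below their Fz8-null mean in all 3 double-null arrays. The 3 keratin genes were below it in M2 and above it in M3. Within a genotype the members' ranges had a median of 0.27 over the Fz8-null arrays and of 0.58 over the double-null ones, and the double-null range was the wider one for 70% of members, beside 69.9% of all genes.

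**Figure D3:**
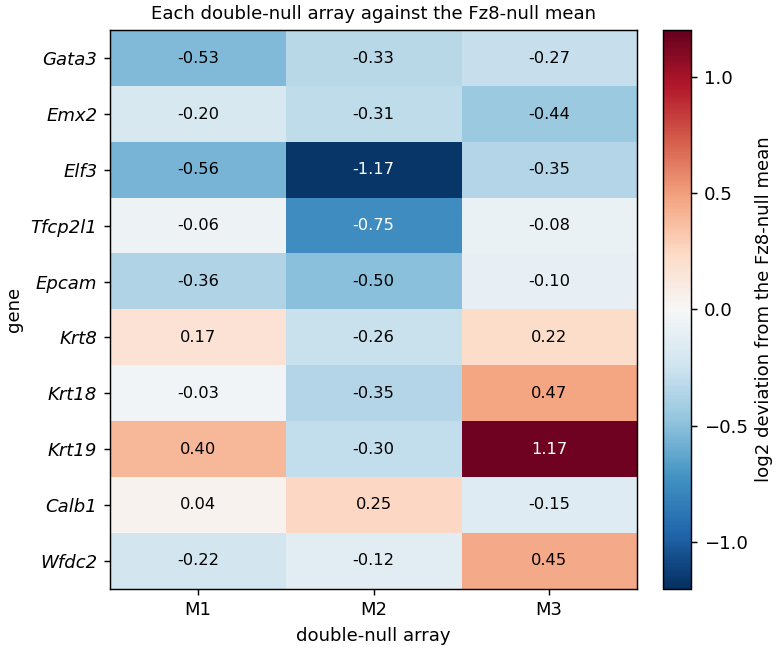
Log2 deviation of each gene (rows) from its Fz8-null mean in each double-null array (columns), blue for lower and red for higher, with the value printed in each cell. Values from Gata3 to Epcam are negative in all 3 columns, and the keratin rows are blue in M2 and red in M3.

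The separation of the 4 transcription factor genes depended in part on how the arrays were scaled. With quantile normalization 2 of the 10 genes lay lower without overlap (Gata3 and Elf3), beside 11.4% of all genes. Equal array medians gave the same 2 genes, beside 10.1% of all genes. Cyclic loess, which removes trends with brightness, gave 1 of the 10 (Elf3), beside 9.11% of all genes. All 4 transcription factor genes kept a negative difference under each of these scalings, and Krt8, Krt18, Krt19, Calb1 and Wfdc2 a positive one. With cyclic loess the differences were -0.18 for Gata3, -0.20 for Emx2, -0.65 for Elf3 and -0.15 for Tfcp2l1, and the median over all genes was 0.013. Over all genes, 2219 lay lower and 1216 higher without overlap as deposited, and 1657 lower and 1576 higher with cyclic loess.

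Among 23 other measured genes of the ureteric trunk and collecting duct, 12 lay lower and 11 higher, with a median difference of -0.0046, and 0 passed limma's adjusted threshold. Groups did not overlap for 2 of the 23 (8.7%, beside 12.2% of all genes), Grhl2 and Lhx1, both lower. Grhl2, a grainyhead factor of epithelial barriers, read 8.96, 9.16 and 9.10 against 8.94, 8.65 and 8.85 in M1, M2 and M3, a difference of -0.26 (SE 0.14, limma adjusted p = 0.372). Lhx1, a homeobox gene of the nephric duct that committing nephrons also express, stood at -0.21 (SE 0.14, adjusted p = 0.468). Under equal array medians and under cyclic loess 0 of the 23 lay lower without overlap.

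Genes of epithelial junctions and adhesion, which Epcam resembles in role, lay lower in all 19 measured, with a median of -0.41, and 0 passed. As deposited, 10576 of all 18193 genes lay lower too, and so did 7991 of the 11174 that averaged 6 or more. Of the 19, 4 had no overlap between groups (21.1%, beside 12.2% of all genes on the lower side). Jup, which encodes plakoglobin of desmosomes and adherens junctions, read 9.48, 10.23 and 10.09 in the Fz8-null arrays and 8.81, 8.72 and 8.90 in M1, M2 and M3, a difference of -1.12 (SE 0.21, limma adjusted p = 0.299). Esrp1, a splicing regulator of epithelia, stood at -0.60 (SE 0.15, adjusted p = 0.314) and Cldn7, a claudin gene, at -0.49 (SE 0.20, adjusted p = 0.325). The list's median deviations in M1, M2 and M3 were -0.19, -0.82 and -0.03, and without M2 the list median was -0.20 with 15 of 19 lower. With cyclic loess 16 of 19 lay lower, with a median of -0.26, beside 8751 of all 18193 genes.

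The ureteric tip, at the other end of the same epithelium, is set beside the trunk because both derive from the bud. Of 11 measured tip markers 10 lay lower, with a median of -0.89. Groups did not overlap for 8 of the 11, all lower (72.7%, beside 12.2% of all genes). Under each of the 3 other scalings 8 lay lower without overlap too, beside 9.11% to 11.4% of all genes. Vsnl1, a calcium sensor gene, fell by 1.90 (SE 0.17, limma adjusted p = 0.0490) and was the 1 marker that passed. Slco4c1, an organic anion transporter gene, stood at -1.33, Sox8, a transcription factor gene, at -1.21 and Ret, the receptor gene that drives branching, at -1.11, each with an adjusted p of at least 0.312. Both lists come from the same 6 arrays, and the difference between tip and trunk medians was not tested.

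**Figure D4:**
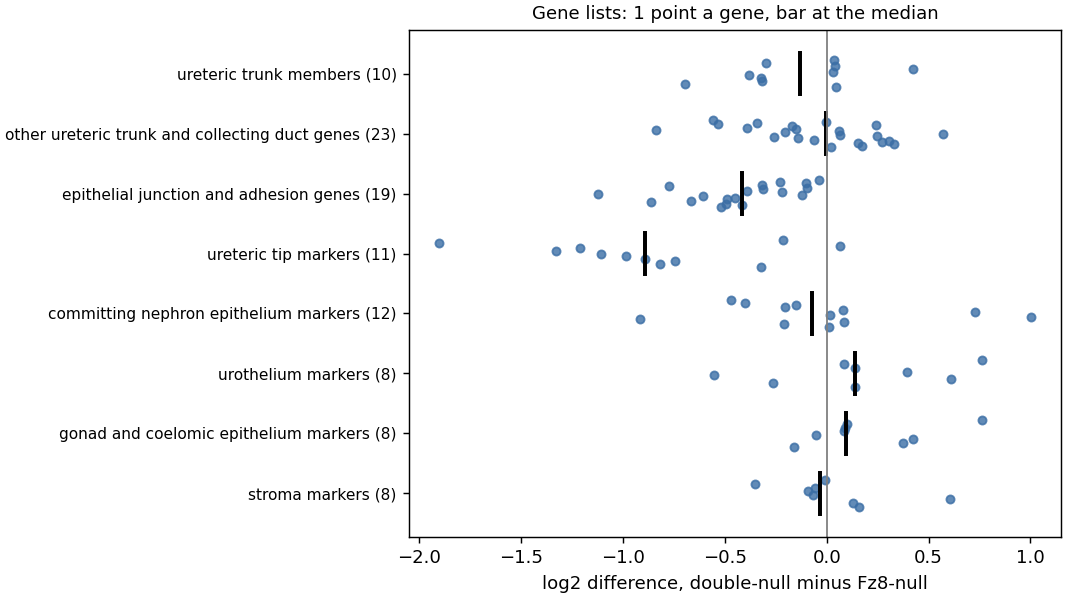
Log2 difference (double-null minus Fz8-null, horizontal axis) of every measured gene in 8 lists, 1 point a gene, with the black bar at the list's median and the number of genes in brackets. Trunk members lie between -0.69 and 0.43, and most tip markers lie to their left.

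Other cells of a dissected kidney that make keratins or share members were read on the same arrays. Liver cells contain Krt8 and Krt18, and all 7 measured liver genes lay higher in double-null kidneys, with Ttr at 3.65, Alb at 3.63 and Afp at 3.22, all secreted serum protein genes, and 0 past limma's threshold. Their mean level was 5.73 to 6.56 in Fz8-null arrays and 6.93, 9.59 and 9.85 in M1, M2 and M3. Liver genes were high in M2, where Krt8, Krt18 and Krt19 were at their lowest of the 6 arrays, and in M3, where they were at their highest; the part of liver RNA in the keratin values was not tested. Of 8 urothelium genes 6 lay higher, with 0 passing and 0 without overlap. Their mean level was 5.21 to 5.36 in Fz8-null and 5.29 to 5.55 in double-null arrays. Upk3b, made by urothelium and by mesothelium, read 5.14, 5.58 and 6.67 in M1, M2 and M3, against 4.84 to 5.17, and Upk1b, a plaque protein gene of urothelium, stood at 0.39. Both were highest in M3, as Krt19 was, and M3 was the highest double-null array for 51.2% of all genes. Trp63, a factor of basal urothelium, read 7.05, 7.60 and 5.62 in M1, M2 and M3 and was instead lowest in M3. Upk1a (-0.55) and Krt5 (-0.26) lay lower.

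Of 8 gonad and coelomic epithelium genes, a list that holds Krt19 and Upk3b too, 6 lay higher and 0 passed, with mean levels of 4.67 to 4.72 in Fz8-null and 4.79 to 5.12 in double-null arrays. The mesothelial markers Msln and Lrrn4 read between 3.58 and 3.99, below the lower quartile of each array, and Gata4, a gonad and coelomic factor gene, stood at 0.37. The part of these cells in the values of Krt19 and Wfdc2 was not tested. Of 12 committing nephron genes 6 lay lower and 6 higher, with 0 passing. Groups did not overlap for 4 of the 12 on the lower side (33.3%) and 2 on the higher side, beside 12.2% and 6.68% of all genes. Hnf4a, a factor of proximal tubule and of liver, stood at 1.00, Wnt4, the ligand of nephron induction, at -0.47 and Pou3f3, a POU factor, at -0.40. Of 8 stroma genes 5 lay lower and 3 higher with 0 passing, and Dcn, a matrix proteoglycan gene, stood at 0.60.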

How the data were processed

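The deposited table holds log2 probe set intensities that the authors normalized between arrays with RMA, per the submitters' processing notes (version not given in the sources used here). Labelled cRNA came from 100 ng of total RNA, per the labels. These log2 values were used as deposited. Of 45101 probe sets 64 controls were set aside; 34945 of the other 45037 carry exactly 1 gene. Double-null and Fz8-null arrays were compared with limma 3.58.1 (R 4.3.3, lmFit and eBayes, two-sided), with Benjamini-Hochberg adjustment over 18193 genes for representatives and over 45037 probe sets otherwise. Differences are double-null minus Fz8-null, ± is SD and SE is moderated. Precision is limited by the number of arrays, and where replicates did not come from separate embryos p-values measure only the spread between arrays. No filter on low values was applied, so all 10 members entered. The fit was tested on simulated data with independent noise and changes larger than that of any member. That test cannot show whether differences of the members' size would be found.

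Members and lists were chosen with earlier results of these data known. Named were all members and, from each other list, genes past the threshold and up to 3 genes of largest difference without overlap and with a mean of at least 6, or else up to 2 of smallest p; Krt7, Msln, Lrrn4, Trp63, Upk1a and Krt5 were added after their values were seen. Alternatives were a minimum mean of 6, quantile normalization, equal array medians, trend and robust eBayes, array weights, a replicate block, each array left out, the mean of a gene's probe sets and ordinary least squares; cyclic loess was chosen after seeing the data. For arrays of the same number, deviations from the group means had correlations of 0.17, -0.14 and 0.090, so numbers were not taken as pairs. Levels of different probe sets were not compared.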

Additional observations from a re-analysis of the deposited data

How the results depend on the processing

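With 3 arrays a group, differences as small as those of most members are within the spread between arrays. No member passed in any of the alternatives except array weights, which called 4 (Gata3, Emx2, Elf3 and Epcam, all lower, among 7576 genes called, with weights from 0.21 for M3 to 3.93 for M1), and leaving out M3, which called Elf3. Leaving out 1 array gave 0 to 1 members called and, over all genes, 2 (C3 left out), 3 (C1 or C2), 4 (M2), 39 (M1) and 3292 (M3), against 5 with all arrays, and a member median between -0.22 and -0.062. The count over all genes was 3 with the replicate block, 1 with the mean of all probe sets and 1 with ordinary least squares, and the replicate block changed no member's call. With a minimum mean of 6 the median was 0.030, since Elf3 was then left out.

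Gata3, Emx2, Elf3, Tfcp2l1 and Epcam stayed negative and Krt19 positive in every alternative in which they were fitted, though Tfcp2l1 stood at only -0.011 with the mean of its probe sets. Signs turned for Krt18 (-0.017) and Wfdc2 (-0.16) with array weights and for Krt8 (-0.021) with the mean of its probe sets. Leaving out 1 array gave -0.046 to 0.19 for Krt8, -0.19 to 0.22 for Krt18, -0.054 to 0.15 for Calb1 and -0.17 to 0.16 for Wfdc2. The cause of these changes was not tested.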
